A study of Mus musculus with 2 samples.

Results

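Wfdc17-very-high neutrophils of tumour-bearing spleens were defined by their own UMI counts (unique molecular identifiers, one per captured RNA molecule). They are cells of the PyMT library in which S100a8 and S100a9 made up at least 10% of the UMIs, with under 2 UMIs of the B cell genes Cd79a and Cd79b, under 3 UMIs of the monocyte genes Csf1r, Ccr2, Ace and Adgre4, under 0.1% of UMIs from the primary granule genes Mpo, Elane, Prtn3 and Ctsg, and at least 2% of UMIs from Wfdc17. This rule found 1060 cells, of 9155 in the PyMT library and 14646 in both libraries. They were 20.1% of the 5261 PyMT cells that passed the other gates (exact Clopper-Pearson 95% interval 19.1 to 21.3%, counting error only). They are set against 3263 PyMT cells that passed the same gates with Wfdc17 under 0.5% of UMIs, called Wfdc17-low here, with 938 intermediate cells between.

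Neutrophils mature in the bone marrow, where precursors divide, fill first primary and then secondary granules, and switch those granule genes off before they leave for the blood. In tumour-bearing mice, neutrophils gather in the spleen, and those that restrain T cells are called granulocytic myeloid-derived suppressor cells. Wfdc17 encodes a small secreted protein with a whey acidic protein domain, a fold shared with protease inhibitors, and is known from activated mouse macrophages and microglia.

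Both libraries hold spleen cells sorted for CD11b and Gr1 and profiled by droplet single-cell RNA sequencing, which counts the 3′ ends of transcripts. For the PyMT library, 3 mice with tumours were pooled, which carry the polyoma middle T oncogene (the labels give their strain only as PYMT). For the wild-type library, 5 FVB/n mice were pooled. Ages are not in the labels used here, and the pool does not show which mouse a cell came from. The study asks which of these sorted cells are suppressor cells. Each condition is 1 library, so nothing below has a replicate check and no p-value was made. Because Wfdc17 chose the cells, every comparison of them is a description and not a test.

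The PyMT library held 73435307 UMIs and the wild-type library 42542700. The lowest cell had 2502 UMIs in the PyMT file and 2752 in the wild-type file, so a lower limit may have been applied before deposit. Of very-high cells 32.2% had under 3000 UMIs, against 1.502% of Wfdc17-low cells, so the share of very-high cells may be cut short by such a limit. Very-high cells were shallow, with a median of 3373 UMIs and 863 genes, against 10097 UMIs and 1542 genes in Wfdc17-low cells, 6016.5 UMIs in intermediate cells and 5401 in the 3565 gated wild-type cells. Levels are therefore given as CPM (a gene's UMIs over all UMIs of the summed group, scaled by the usual factor). UMIs per cell stand beside them for some genes and lists only. A gene higher in CPM can be level or lower per cell, because very-high cells held fewer UMIs. Free RNA in droplets was read from 919 PyMT B cells (at least 10 UMIs of Cd79a and Cd79b, and under 2% of UMIs from S100a8 and S100a9), which should lack neutrophil genes. The 2 libraries share 72 cell barcodes, 10 of them among very-high cells. Leaving the cells with shared barcodes out changed the results little. The share of very-high cells was then 20.13%, and 1210 genes were at least 2-fold higher than in Wfdc17-low cells, against 1217.

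The very-high cells carried the defining genes of neutrophils. S100a8 was at 180698 CPM in very-high and 221711 CPM in Wfdc17-low cells, a gene of the gate. Ly6g, the neutrophil antigen that the Gr1 antibody also binds, was at 857 CPM in very-high, 861 in Wfdc17-low and 1194 in wild-type cells, against 42.6 in B cells. Retnlg, a secreted resistin-like protein of neutrophils, was at 31689.7 CPM in very-high and 10643 in Wfdc17-low cells. Of 15 neutrophil markers 5 were at least 2-fold higher in very-high cells, among them Csf3r and Cxcr2, and 5 lower, namely Camp, Ltf, Ngp, Lcn2 and Cd177. The gate set the level of S100a8 and S100a9, so it says nothing more about the label. Ly6g, Retnlg, Csf3r and Cxcr2, which the gates did not use, were far above their levels in B cells. Retnlg was at 988 CPM there, Csf3r at 36.8 and Cxcr2 at 32.3.

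Markers of other cell types gave a mixed picture. The 10 B cell markers summed to 46.9 CPM in very-high, 36.4 in Wfdc17-low and 26.4 in wild-type cells, against 9612 in B cells. The 13 monocyte markers, 4 of which were gated, summed to 724 CPM in very-high and 1726 in Wfdc17-low cells, most of it Ly6c2, at 509 and 1625 CPM. Of the 11 measured, 2 were at least 2-fold higher in very-high cells, 2 lower and 7 within 2-fold. The higher ones were Csf1r, a gate gene, at 62.0 CPM in very-high and 7.89 in Wfdc17-low cells, and Ctss at 81.8 and 30.5. The lower ones were Ly6c2 and Spn, the latter at 4.22 and 12.9 CPM. Of 9 NK markers 8 were at 0, among them Ncr1 and Klrb1c, and of 10 T cell markers Cd8a, Cd8b1 and Lef1 were at 0. The T cell sum was 127 CPM in very-high, 251 in Wfdc17-low and 414 in wild-type cells, and Cd3d made up 121 of the very-high sum, found in 20.6% of thinned very-high cells. Erythroid markers summed to 455 CPM in very-high, 155 in Wfdc17-low and 19.5 in wild-type cells, and platelet markers to 31.2, 9.18 and 14.2. Macrophage markers ran higher, at 557 CPM over 11 genes in very-high, 162 in Wfdc17-low and 120 in wild-type cells, but 386 CPM of the very-high sum was Slc40a1, an iron exporter, and 132 was Hmox1, a haem-degrading enzyme. The complement gene C1qa, a marker of tissue macrophages, was at 10.9 CPM in very-high cells, against 0.702 in Wfdc17-low cells, and 1.32% of very-high cells held a C1qa UMI after each cell was thinned to 2500 UMIs. The part of RNA from macrophages, monocytes, erythroid cells and platelets in the results was not tested. Mammary tumour markers summed to 2.73 CPM over 9 genes.

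Wfdc17 itself, which the rule used, was at 36663 CPM in very-high, 10615 in intermediate, 1112 in Wfdc17-low and 31.8 in wild-type cells, and at 617 in B cells. The median very-high cell gave 3.34% of its UMIs to Wfdc17, and the highest gave 12.3%. Of the 3565 gated wild-type cells 1 reached 2% (0.0281%, interval up to 0.156%), and 93.6% held no Wfdc17 UMI. Apart from that 1 cell, the very-high range was seen in the PyMT library.

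**Figure D1:**
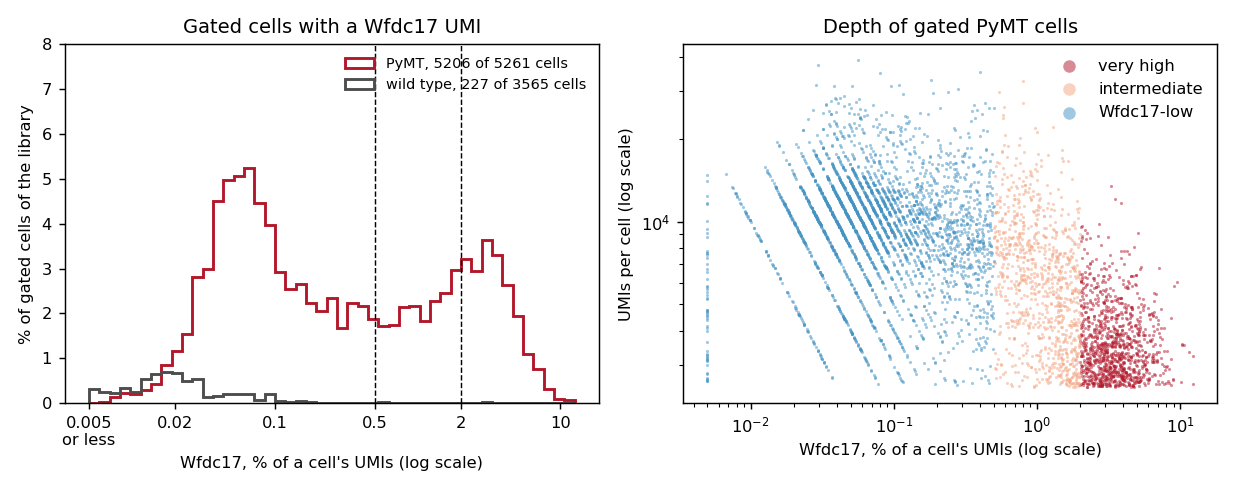
Left: the share of a cell's UMIs from Wfdc17 (log scale) for gated cells with at least 1 Wfdc17 UMI, 5206 of 5261 PyMT and 227 of 3565 wild-type cells, as a percent of the gated cells of each library; dashed lines mark 0.5% and 2%. Right: the UMIs per cell (log scale) of the gated PyMT cells against the same share, where the 1060 very-high cells, at a median of 3373 UMIs, sit below most Wfdc17-low cells; cells with no Wfdc17 UMI are drawn at 0.005%.

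The shares formed a broad range without a gap at 2%, with 415 cells at 0.5 to 1%, 523 at 1 to 2%, 406 at 2 to 3% and 308 at 3 to 4%. Whether they form a separate peak was not tested. Just outside the limit, 102 cells had 1.8 to 2.0% Wfdc17, and just inside it 100 cells had 2.0 to 2.2%. Il1b was at 1805 CPM in the cells just inside and 1655 CPM in those just outside. Socs3 was at 494 CPM just inside and 374 CPM just outside, and Camp at 3428 CPM just inside and 4354 CPM just outside. Other genes differed more, with Cxcl2 at 444 CPM just inside and 258 just outside, Cd84 at 356 and 252, and Stfa2 at 978 and 1854. The 2% limit is that of the rule, and no gap in the shares marks it.

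The other 6 genes proposed as markers of these cells are known as follows. Il1b encodes interleukin 1 beta, a secreted inflammatory cytokine. Ifitm1 encodes an interferon-induced membrane protein, and Socs3 the feedback inhibitor of the G-CSF and interleukin 6 receptors that acts on JAK and STAT3 signalling. Steap4 encodes a metalloreductase, Clec4d a C-type lectin receptor for microbial glycolipids, and Arg2 the mitochondrial arginase. They were proposed with results of these data known, so their height is a description.

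All 6 were at least 2-fold higher in very-high than in Wfdc17-low cells. Il1b was at 2542 CPM in very-high cells, against 140.0 in Wfdc17-low and 21.0 in wild-type cells, a log2 ratio of 4.18 over Wfdc17-low cells (95% interval 4.13 to 4.23) and 6.92 over wild-type cells (95% interval 6.79 to 7.05). Ifitm1 was at 13194 CPM in very-high, 1201 in Wfdc17-low and 25.9 in wild-type cells. Socs3 was at 714, 41.6 and 3.57 CPM in very-high, Wfdc17-low and wild-type cells. In each of these 3 genes the intermediate cells lay between, with Il1b at 947, Ifitm1 at 6267 and Socs3 at 252 CPM. Steap4 was at 306 CPM in very-high and 11.02 in Wfdc17-low cells, and a single Steap4 UMI was found in the wild-type cells, a log2 ratio of 12.83 with a 95% interval of 10.35 to 18.13. Clec4d was at 408 CPM in very-high, 26.3 in Wfdc17-low and 14.8 in wild-type cells. Arg2 was at 312, 34.5 and 12.1 CPM in the same groups, while its cytosolic relative Arg1 had 0 UMIs in all 3.

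Free RNA may make up part of the lower levels. B cells held 144 CPM of Il1b and 37.6 of Socs3, near the CPM of Wfdc17-low cells. Per cell, Il1b was at 1.47 UMIs in Wfdc17-low and 0.595 in B cells, and Socs3 at 0.436 and 0.156, where Wfdc17-low cells were the deeper ones. After thinning, the top 5% of Wfdc17-low cells held 53.7% of their Il1b UMIs, up to 28 in a cell. How much of these levels is free RNA was not tested. Ifitm1 at 385, Arg2 at 8.67 and Clec4d at 14.2 CPM in B cells were below the Wfdc17-low level.

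**Figure D2:**
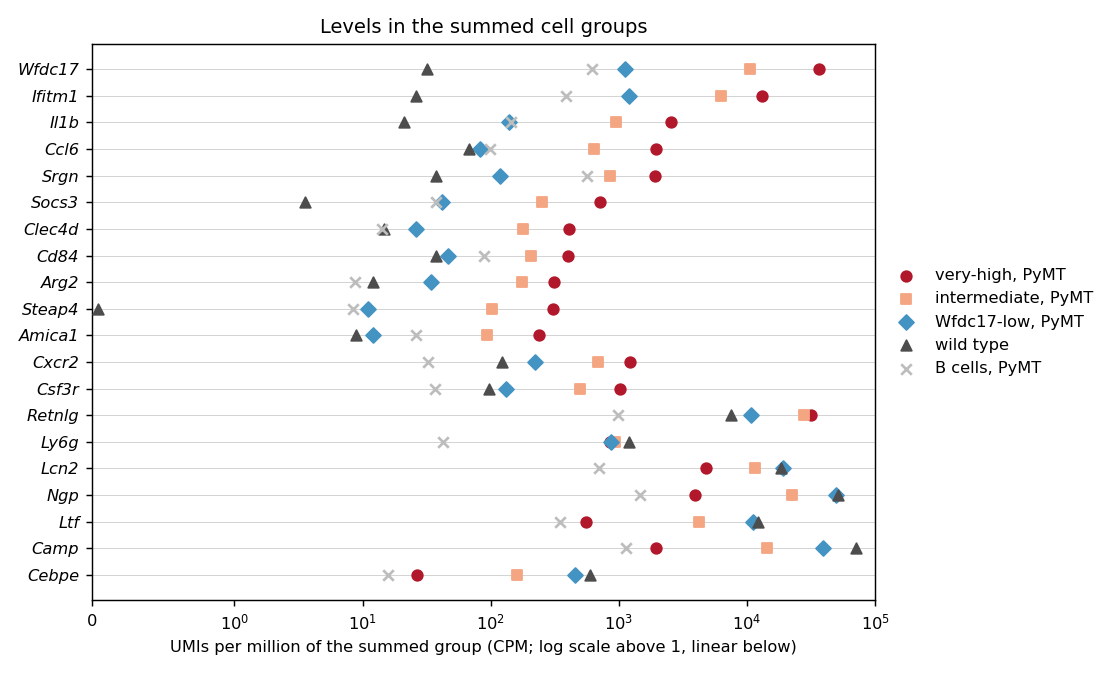
Levels of 20 named genes in CPM of the summed UMIs (log scale above 1, linear below) in very-high, intermediate, Wfdc17-low, wild-type and B cells. From Wfdc17 to Csf3r the very-high cells are highest and the intermediate cells second, and for Lcn2, Ngp, Ltf, Camp and Cebpe the very-high cells lie below the intermediate cells.

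Single cells showed the markers together. After thinning each cell to 2500 UMIs, Il1b was found in 90.8% of very-high cells (62.0% of intermediate, 21.2% of Wfdc17-low, 2.95% of wild-type and 19.8% of B cells). Ifitm1 was found in 99.0% of very-high, 69.0% of Wfdc17-low and 3.70% of wild-type cells, and in 51.7% of B cells. Socs3 was found in 76.1% of very-high, 8.21% of Wfdc17-low and 0.842% of wild-type cells, and in 7.73% of B cells. The median very-high cell held 4 of the 6 other markers, 78.2% held 4 or more and 14.9% held all 6. Of intermediate cells 37.4% held 4 or more, of Wfdc17-low cells 1.99% and of wild-type cells 0.0561%. Unthinned, Il1b was found in 94.8% of very-high and 54.4% of Wfdc17-low cells, Socs3 in 85.7% and 26.1%.

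The ratios were smaller among cells of like depth, and all 6 still passed 2-fold. In cells of 2500 to 5000 UMIs only, 904 very-high cells (median 3225 UMIs) and 349 Wfdc17-low cells (median 3910), Il1b was at 2996 CPM in very-high and 254 CPM in Wfdc17-low cells, with the log2 ratio at 3.56 (95% interval 3.41 to 3.72). In the same cells Ifitm1 was at 13795 CPM in very-high and 1665 in Wfdc17-low cells, and Socs3 at 820.2 and 61.6. Clec4d moved most, to a log2 ratio of 2.70, against 3.96 over cells of any depth. Molecules per cell were higher too. A very-high cell held 9.67 Il1b UMIs on average, against 1.47 in a Wfdc17-low cell with about 3 times as many UMIs in all, and 50.2 against 12.6 of Ifitm1.

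The sequence upstream of the genes that define these cells is shown because several of them are highest together. Of the 15 highest genes and the markers, 19 in all, 15 had an entry in the RefSeq promoter table on GRCm38.p6. The 250 bases before the start are given for Wfdc17 (chr11:83703806-83704055, plus strand), its neighbour Wfdc18 (chr11:83708754-83709003, plus strand), Il1b (chr2:129371140-129371389, minus strand), Socs3 (chr11:117969367-117969616, minus strand) and Steap4 (chr5:7960222-7960471, plus strand), 5′ to 3′ on the gene's strand. Capitals mark TATAAA, the STAT motif TTCNNNGAA and the PU.1 motif GAGGAA on either strand.
Wfdc17: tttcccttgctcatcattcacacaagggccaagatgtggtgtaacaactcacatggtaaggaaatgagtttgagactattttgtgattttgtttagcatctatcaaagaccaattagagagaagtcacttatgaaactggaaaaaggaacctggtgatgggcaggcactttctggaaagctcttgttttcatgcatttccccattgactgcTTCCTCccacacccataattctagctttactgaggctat
Wfdc18: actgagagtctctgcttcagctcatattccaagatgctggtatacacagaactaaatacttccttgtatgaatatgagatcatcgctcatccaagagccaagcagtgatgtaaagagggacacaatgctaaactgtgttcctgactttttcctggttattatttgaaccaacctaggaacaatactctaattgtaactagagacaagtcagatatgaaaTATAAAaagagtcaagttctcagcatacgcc
Il1b: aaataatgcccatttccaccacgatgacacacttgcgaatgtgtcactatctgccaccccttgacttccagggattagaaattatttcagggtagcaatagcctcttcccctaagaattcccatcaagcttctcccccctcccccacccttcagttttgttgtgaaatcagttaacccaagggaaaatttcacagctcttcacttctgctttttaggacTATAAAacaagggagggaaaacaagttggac
Socs3: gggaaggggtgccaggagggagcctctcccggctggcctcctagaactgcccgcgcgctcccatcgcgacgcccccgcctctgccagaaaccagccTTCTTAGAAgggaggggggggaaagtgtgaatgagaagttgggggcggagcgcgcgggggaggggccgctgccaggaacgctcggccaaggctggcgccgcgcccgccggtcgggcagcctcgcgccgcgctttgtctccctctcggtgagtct
Steap4: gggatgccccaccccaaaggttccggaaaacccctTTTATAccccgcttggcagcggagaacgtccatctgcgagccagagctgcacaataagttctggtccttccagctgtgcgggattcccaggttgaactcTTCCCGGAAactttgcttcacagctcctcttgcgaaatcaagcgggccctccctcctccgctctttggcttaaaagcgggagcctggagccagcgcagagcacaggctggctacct
TATAAA starts 31 bases before the start of Wfdc18 and of Il1b. TTCNNNGAA starts 154 bases before the start of Socs3, and 116 before that of Steap4. Among the 15 genes, TTCNNNGAA was found in Steap4, Sirpb1c and Socs3, and in 8.13% of 27025 genes in the table. TATAAA was in 5 of the 15 and in 14.3% of all genes. The C/EBP motif TTGNNCAA was in 0 of the 15 and in 6.51% of all genes, the AP-1 motif TGANTCA in Gbp2 and in 7.82%, and the interferon-stimulated response element in Gbp2 and Srgn and in 3.46%. The NF-kB motif was in 6 and in 48.7%, and GAGGAA in 2 and in 25.9%. No 2 of the matches in the printed sequences overlap. A match says only that these letters stand in the window.

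Over all genes, 8068 had at least 50 UMIs over very-high and Wfdc17-low cells. Of these, 1217 (15.1%) were at least 2-fold higher and 1533 (19%) at least 2-fold lower in very-high cells in CPM, with a median log2 ratio of -0.077. Per cell, 196 genes (2.43%) were at least 2-fold higher and 5761 (71.4%) at least 2-fold lower, where a very-high cell held fewer UMIs in all. The contrast is the one the rule used, so these shares are background for the counts below.

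**Figure D3:**
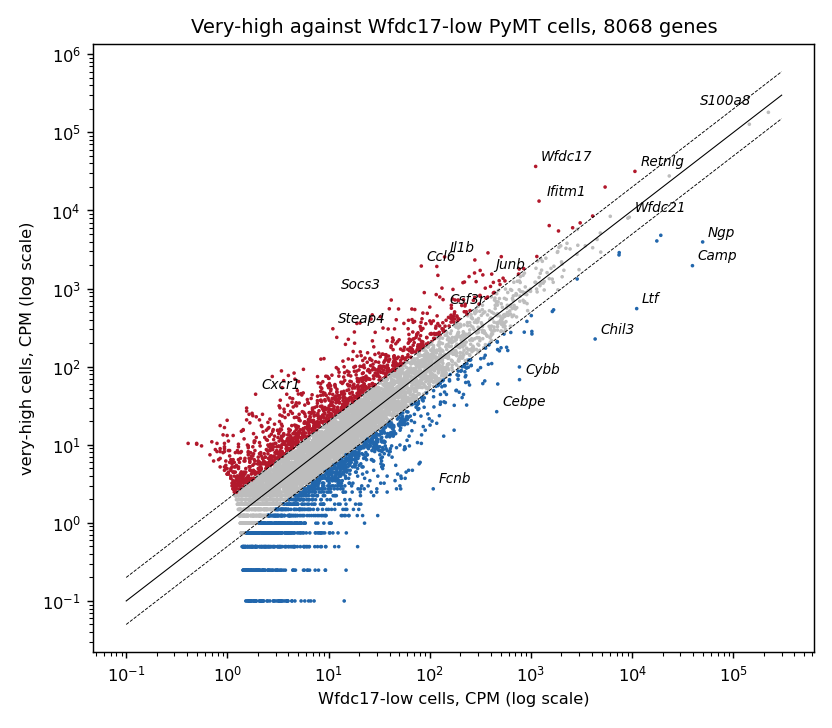
CPM in very-high cells (vertical, log scale) against Wfdc17-low cells (horizontal, log scale) for the 8068 genes with at least 50 UMIs over both groups; red and blue mark genes at least 2-fold higher and lower in very-high cells, dashed lines 2-fold, and a gene with 0 UMIs in a group is drawn at 0.1. Wfdc17, Ifitm1, Il1b, Ccl6 and Steap4 lie far above the diagonal and Camp, Ngp, Ltf, Chil3, Cebpe and Fcnb far below it, while Wfdc21 lies close to it.

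Chemokine ligands, which draw other leukocytes, were mostly higher. Of 8 measured, 7 were at least 2-fold higher in very-high cells and 1 lower, with a list median of 2.36. Pf4 and Ppbp, among the 7, are also on the platelet list, whose sum was higher in very-high cells too. Ccl6, a CC chemokine of myeloid cells, was at 1943 CPM in very-high, 82.4 in Wfdc17-low, 67.7 in wild-type and 98.6 in B cells, a log2 ratio of 4.56 over Wfdc17-low cells (95% interval 4.50 to 4.62). Per cell, Ccl6 was at 0.864 UMIs in Wfdc17-low and 0.408 in B cells. Cxcl2, a neutrophil attractant that binds Cxcr2, was at 539 CPM in very-high, 71.1 in Wfdc17-low and 65.8 in wild-type cells. Ccl4, another CC chemokine, was at 19.1 CPM in very-high and 1.67 in Wfdc17-low cells, found in 2.83% of thinned very-high cells. Ccl5 was the gene of the list that was lower, at 6.69 CPM in very-high and 15.9 in Wfdc17-low cells, and its direction turned with Wfdc17 at 1.5% or with thinned cells.

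The interleukin 1 system had 8 of 13 measured genes at least 2-fold higher and 1 lower in CPM, a median of 1.28 that was -0.18 per cell. Beside Il1b, Nlrp3, the sensor of the inflammasome that activates caspase 1, was at 37.2 CPM in very-high and 3.33 in Wfdc17-low cells. Il1rap, the shared receptor chain of the family, was at 49.3 and 4.91 CPM. Il1rn, the receptor antagonist, was at 75.6 CPM in very-high, 23.4 in Wfdc17-low and 51.3 in wild-type cells, and the decoy receptor gene Il1r2 at 129, 53.2 and 18.8. Pycard, the adaptor of the inflammasome, went the other way, at 49.3 CPM in very-high and 109 in Wfdc17-low cells. Il1a had 0 UMIs in both.

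Genes beside Wfdc17 on chromosome 11 (chr11:83704056-83706269 on GRCm38) were measured because Ccl6, Ccl9, Ccl3, Ccl4 and Ccl5 share the region. Wfdc18, whose annotated start lies 4948 bases on and which encodes another whey acidic protein, was at 66.2 CPM in very-high, 3.60 in Wfdc17-low and 0.0421 in wild-type cells, the last from 1 UMI. Wfdc21, 42884 bases on, was at 8203 CPM in very-high, 9362 in Wfdc17-low and 10349 in wild-type cells, and lay within 2-fold in both comparisons. Heatr6, 49581 bases on, was at 12.4 CPM in very-high and 19.4 in Wfdc17-low cells. Of the 4 measured whey acidic protein genes, Wfdc17 and Wfdc18 were thus at least 2-fold higher in CPM and none was lower by that much. Per cell, the same 2 were higher by as much. Wfdc21 was lower per cell, at 31.2 UMIs in very-high and 98.2 in Wfdc17-low cells.

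Receptors for inflammatory signals were mostly higher in CPM. Of 20 measured cytokine and growth factor receptors 14 were at least 2-fold higher and 0 lower, a median of 1.18 that was -0.28 per cell. Csf3r, the receptor for G-CSF, the main growth factor of neutrophils, was at 1014 CPM in very-high, 132 in Wfdc17-low and 96.6 in wild-type cells. Il13ra1, a chain of the interleukin 4 and 13 receptor, was at 199.9, 18.1 and 1.68 CPM in these groups. Of 13 measured chemoattractant receptors 7 were at least 2-fold higher and 0 lower in CPM, and per cell 3 were higher and 5 lower. Cxcr2, the receptor that draws neutrophils out of the marrow, was at 1213 CPM in very-high, 220.0 in Wfdc17-low and 124 in wild-type cells. Its relative Cxcr1 was at 44.4 CPM in very-high and 1.90 in Wfdc17-low cells, with 0 UMIs in wild-type cells, at least 8.46 higher on the log2 scale when 3 counts over the wild-type sum are taken as the floor. Cxcr4, which holds neutrophils in the marrow, was at 39.9 CPM in very-high, 60.0 in Wfdc17-low and 145 in wild-type cells.

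Pattern receptors and adhesion genes gave a mixed picture. Of 15 measured C-type lectin receptors and partners 8 were at least 2-fold higher and 2 lower in CPM, and per cell 3 were higher and 6 lower. Clec4e, Mincle, which pairs with the Clec4d product, was at 579.7 CPM in very-high and 99.96 in Wfdc17-low cells, and Clec12a, an inhibitory receptor for uric acid crystals, at 63.5 and 240.3. Of 19 Toll-like receptors and partners 10 were higher and 2 lower in CPM, and per cell 1 was higher and 8 lower. Tlr2, a receptor for bacterial lipoproteins, was at 114 CPM in very-high and 31.3 in Wfdc17-low cells. Among 16 adhesion molecules 7 were higher and 2 lower in CPM, and per cell 2 were higher and 9 lower. Selplg, the selectin ligand PSGL-1, was at 1191 CPM in very-high, 213 in Wfdc17-low and 93.1 in wild-type cells. Itgam, which encodes the CD11b used in the sort, was at 150.0, 230.0 and 336 CPM.

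Of the SLAM family receptors, which signal between blood cells, Cd84 and Cd244 stood high, as did JAML, which was listed with them. Cd84 was at 399 CPM in very-high, 46.6 in Wfdc17-low and 37.6 in wild-type cells, and at 88.8 in B cells, which express it. Cd244 was at 82.8 CPM in very-high, 4.56 in Wfdc17-low and 1.56 in wild-type cells. Amica1, which encodes JAML, was at 237, 12.0 and 8.83 CPM. Among the 5 measured genes of the list, these 3 passed 2-fold, also per cell. The labels' protocol lists antibodies to the products of Cd84 and Amica1.

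Immediate-early genes, which stimulated cells switch on within minutes, were the list with the most members higher. Of 23 measured, 21 were at least 2-fold higher in very-high than in Wfdc17-low cells and 0 lower, with a median of 2.13 in CPM and 0.66 per cell. Junb, an AP-1 subunit, was at 2865 CPM in very-high, 376 in Wfdc17-low and 228 in wild-type cells. Dusp1, a phosphatase that switches MAP kinases off, was at 1478, 120.2 and 86.4 CPM in these groups. Btg1, an antiproliferative factor, was at 2324 CPM in very-high, 279 in Wfdc17-low and 1371 in B cells. Such genes also respond to tissue handling, whose part was not tested. Of 19 NF-kB feedback genes 7 were higher and 0 lower in CPM, and per cell 0 were higher and 7 lower. Of 10 heat shock genes 0 were higher and 2 lower in CPM, and per cell 0 were higher and 6 lower.

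STAT3 and interferon targets were higher in CPM and near level per cell. Of 20 SOCS and STAT3 genes 12 were at least 2-fold higher and 1 lower, a median of 1.35 in CPM and -0.11 per cell. Saa3, an acute-phase protein gene, was at 155 CPM in very-high, 20.6 in Wfdc17-low and 0.210 in wild-type cells. Lcn2, a siderophore-binding granule protein that the list also holds, was the lower one, at 4811 CPM in very-high, 19170.3 in Wfdc17-low and 18281 in wild-type cells. Of 26 interferon-stimulated genes 14 were at least 2-fold higher and 1 lower, a median of 1.42 in CPM and -0.039 per cell. Gbp2, an interferon-induced GTPase, was at 77.1 CPM in very-high and 4.00 in Wfdc17-low cells, and Oasl2 at 156 and 17.5. Cmpk2, a mitochondrial nucleotide kinase, was the lower one, at 8.93 CPM in very-high and 19.7 in Wfdc17-low cells. The IFITM family split, with 4 of 7 genes at least 2-fold higher and 2 lower. Ifitm6 was at 2697 CPM in very-high, 7409 in Wfdc17-low and 3019 in wild-type cells.

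Among the 15 highest genes not yet named were St3gal6, a sialyltransferase, at 74.9 CPM in very-high and 2.78 in Wfdc17-low cells, and Prr5l, a partner of mTOR complex 2, at 88.3 and 3.42. Srgn, the granule proteoglycan serglycin, was at 1919.9 CPM in very-high, 117 in Wfdc17-low and 37.7 in wild-type cells, and Marcks, an actin-binding kinase substrate, at 358, 19.0 and 17.2. Tspan13, a tetraspanin, was at 460.5 CPM in very-high and 27.0 in Wfdc17-low cells. The free RNA level of Srgn, Marcks, Tspan13 and St3gal6 in B cells, 559, 146, 211 and 33.1 CPM, was above that of the Wfdc17-low cells, and B cells may express them.

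Of the genes tied to immune suppression, 11 of 19 measured were at least 2-fold higher and 3 lower, but the list holds Wfdc17 and 3 of the other markers. Pla2g7, which degrades platelet-activating factor, was at 548 CPM in very-high, 49.1 in Wfdc17-low and 12.9 in wild-type cells. Nos2, the inducible nitric oxide synthase, had 11 UMIs in all very-high cells, 2.73 CPM, against 0.292 in Wfdc17-low cells. Cd274, which encodes PD-L1, was at 1.74 CPM in very-high and 0.438 in Wfdc17-low cells. Il10 had 0 UMIs in both. Olr1, the receptor LOX-1 that marks human suppressor neutrophils, had 0 UMIs in very-high cells, 5.82 CPM in Wfdc17-low and 18.3 in wild-type cells.

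Secondary granule genes, made by maturing neutrophils, were mostly lower. Among 17 secondary granule genes, 11 were at least 2-fold lower and 0 higher, and the list median was -1.99. Camp, the cathelicidin, was at 1965 CPM in very-high, 14378 in intermediate, 39404 in Wfdc17-low and 71062 in wild-type cells, and at 1138 in B cells. Ltf, lactoferrin, was at 554 CPM in very-high, 11078 in Wfdc17-low, 12144 in wild-type and 346 in B cells. Ngp, a cystatin-like granule protein, was at 3955, 49694, 51672 and 1454 CPM in these groups. Camp and Ltf in very-high cells were thus within 2-fold of their levels in B cells. Chil3, a chitinase-like protein, was at 226 CPM in very-high, 268 in B cells and 4304 in Wfdc17-low cells. The part of free RNA in these levels was not tested. Camp reached 1% of UMIs in 8 very-high cells, 0.755%, and in 92.2% of Wfdc17-low cells.

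Gelatinase and late granule genes were split, with 5 of 19 at least 2-fold higher and 2, Lyz2 and Padi4, lower, and with 3 higher and 3 lower against Wfdc17-low cells with little Camp. Mmp8, neutrophil collagenase, was at 965 CPM in very-high and 764 in Wfdc17-low cells, and Mmp9, gelatinase B, at 609 and 681. Of 23 granulopoiesis transcription factors 12 were at least 2-fold higher and 2 lower in CPM, a median of 1.03 that was -0.43 per cell. The 2 lower were Cebpe and Gfi1, which act at granule-forming stages. Cebpe was at 26.5 CPM in very-high, 458 in Wfdc17-low and 595 in wild-type cells, and Gfi1 at 0.496, 5.93 and 9.46. Cebpb, which drives emergency neutrophil production, was the other way, at 2562, 509 and 361 CPM. Of 8 NADPH oxidase genes 3 were at least 2-fold lower and 0 higher. Cybb, the catalytic subunit, was at 68.2 CPM in very-high and 770.2 in Wfdc17-low cells, and Ncf1, a cytosolic subunit, at 159 and 487.

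Most genes of dividing cells were lower in very-high cells in CPM. At least 2 UMIs of the 4 cycling genes were in 0.0943% of very-high and 8.76% of Wfdc17-low cells. Of 39 cell cycle genes measured, 33 were at least 2-fold lower and 1 higher. Their median was -2.92. In cells of 2500 to 5000 UMIs only, the median was 0.49, taken over the list genes with at least 50 UMIs in those cells. These medians need not cover the same genes. The sum of the list differed less. It was 2115 CPM in very-high cells of 2 to 3% Wfdc17 and 2257 at 5% and over, against 3261 in Wfdc17-low cells. Ccnb2, a mitotic cyclin, was at 1.24 CPM in very-high, from 5 UMIs, and 30.6 in Wfdc17-low cells. Of 41 oxidative phosphorylation genes 9 were at least 2-fold lower and 0 higher, and their median was -0.55. Among 11 Bcl2 family genes, 6 were higher and 0 lower in CPM, and per cell 0 were higher and 4 lower. Mcl1, a survival factor of neutrophils, was at 369 CPM in very-high and 82.0 in Wfdc17-low cells.

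**Figure D4:**
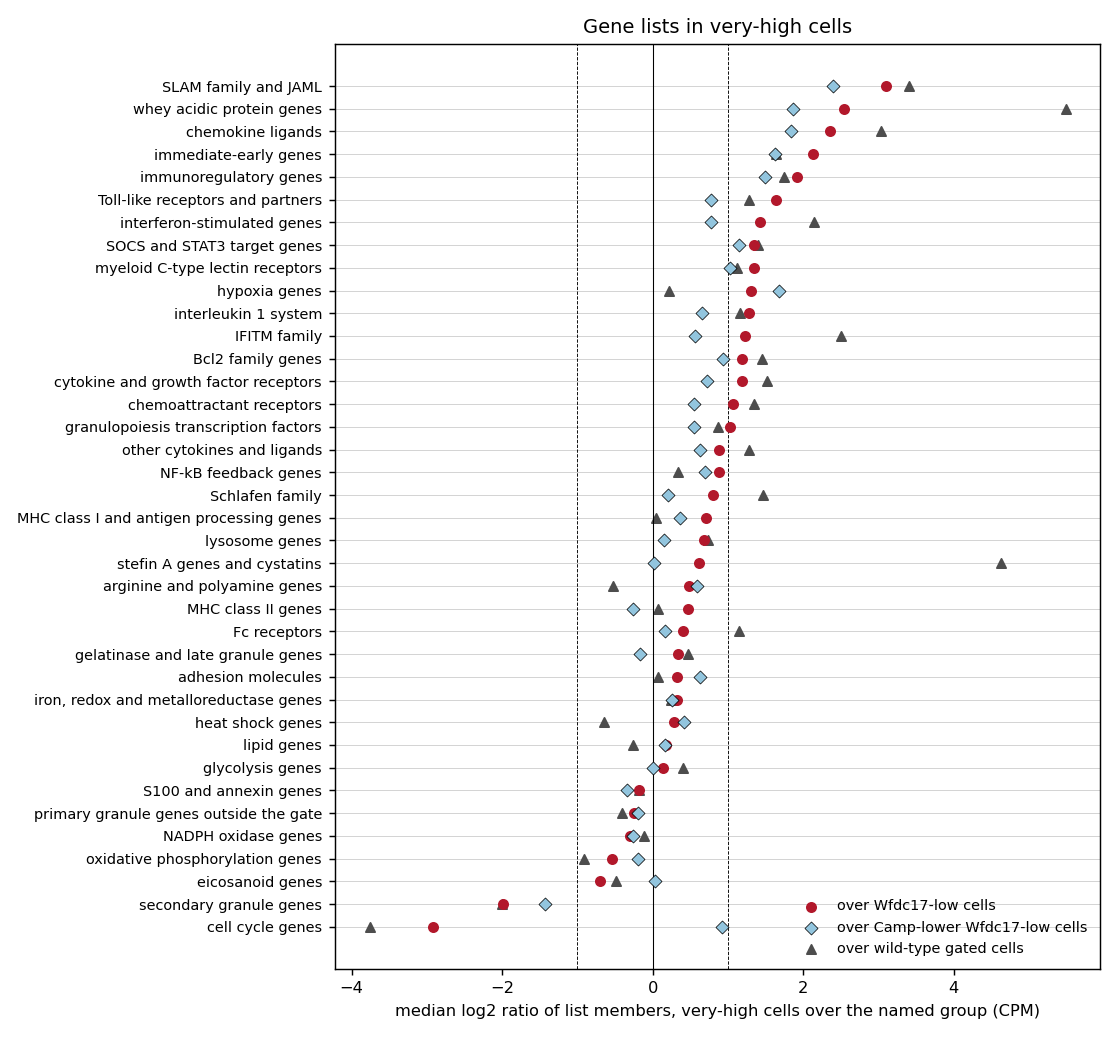
The median log2 ratio of each gene list (members with at least 50 UMIs over both groups) in very-high cells over Wfdc17-low cells, over Camp-lower Wfdc17-low cells and over wild-type gated cells, in CPM; dashed lines mark 2-fold. The medians over all genes were -0.077, 0.15 and -0.44, and the secondary granule genes are at -1.43 or lower in all 3. The cell cycle median changes side against Camp-lower cells, which were chosen to hold under 2 UMIs of 4 cycling genes. There, 5 genes of that list had enough UMIs, against 39 in the other comparisons.

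To set very-high cells against cells nearer in maturity, 552 Wfdc17-low cells with Camp under 2% of UMIs and under 2 UMIs of 4 cycling genes were used, at a median of 7166 UMIs. Of 4875 genes, 584 (12%) were at least 2-fold higher and 270 (5.54%) lower in very-high cells, with a median log2 ratio of 0.15, and per cell 125 (2.56%) were higher and 1714 (35.2%) lower. Il1b had a log2 ratio of 3.68 (95% interval 3.57 to 3.78), Steap4 3.73, Socs3 3.18, Ifitm1 2.03 and Clec4d 2.28. Of 20 immediate-early genes 18 were at least 2-fold higher and 0 lower, while 10 of 15 secondary granule genes were lower by as much and 0 higher. Retnlg, at 31466 CPM in Camp-lower cells, was level with very-high cells, a log2 ratio of 0.01. Prok2, a chemokine-like protein, was at 1584 CPM in very-high and 1037 in Camp-lower cells. Padi4, the enzyme that citrullinates histones in neutrophil traps, was at 40.2 CPM in very-high and 215 in Camp-lower cells, and Anxa3, an annexin, at 60.0 and 360.2.

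Against gated wild-type cells, 1024 of 8138 genes (12.6%) were at least 2-fold higher and 2581 (31.7%) lower in very-high cells, the median over all of them being -0.44, and per cell 480 (5.9%) were higher and 4791 (58.9%) lower. Igfbp6, a binding protein of insulin-like growth factors, was at 437 CPM in very-high cells and 0.294 in wild-type cells, and at 32.5 in Wfdc17-low cells. Stefin A genes encode intracellular inhibitors of cysteine proteases. Of 9 stefins and cystatins measured against wild type 7 were at least 2-fold higher, a median of 4.63, while against Wfdc17-low cells 1 of 10 was, a median of 0.62. Stfa2 was at 1241 CPM in very-high, 732 in Wfdc17-low and 17.1 in wild-type cells. Thbs1, a matrix glycoprotein, was at 0.496 CPM in very-high cells, from 2 UMIs, and 160.3 in wild-type cells, a log2 ratio of -8.34 (95% interval -11.38 to -6.48), and at 3.86 CPM in Wfdc17-low cells. The tumour, the library and the pool of mice cannot be told apart here.

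Within the very-high range, the other markers changed less with Wfdc17 than they did below it. Cells were binned at 2 to 3% (406 cells), 3 to 4% (308), 4 to 5% (166) and 5% and over (180). Wfdc17, which set the bins, was at 24596, 34653, 44481 and 63255 CPM. Il1b was at 2363, 2689, 2553 and 2719 CPM, and Socs3 at 651, 755, 718 and 795 CPM. Steap4 rose in each bin, at 288, 297, 311 and 362 CPM, and Arg2 stayed between 302 and 328 CPM. Below the limit the same genes climbed with Wfdc17, with Il1b at 140.04 CPM under 0.5%, 660.0 at 0.5 to 1% and 1283 at 1 to 2%. Over the 1060 cells the Spearman correlation of the Wfdc17 share was 0.06 with the Il1b share, 0.10 with the Ifitm1 share and -0.17 with the share of S100a8 and S100a9, which shares the total of each cell. Ngp kept falling across the 4 bins, at 5214, 3627, 3047 and 2234 CPM.

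**Figure D5:**
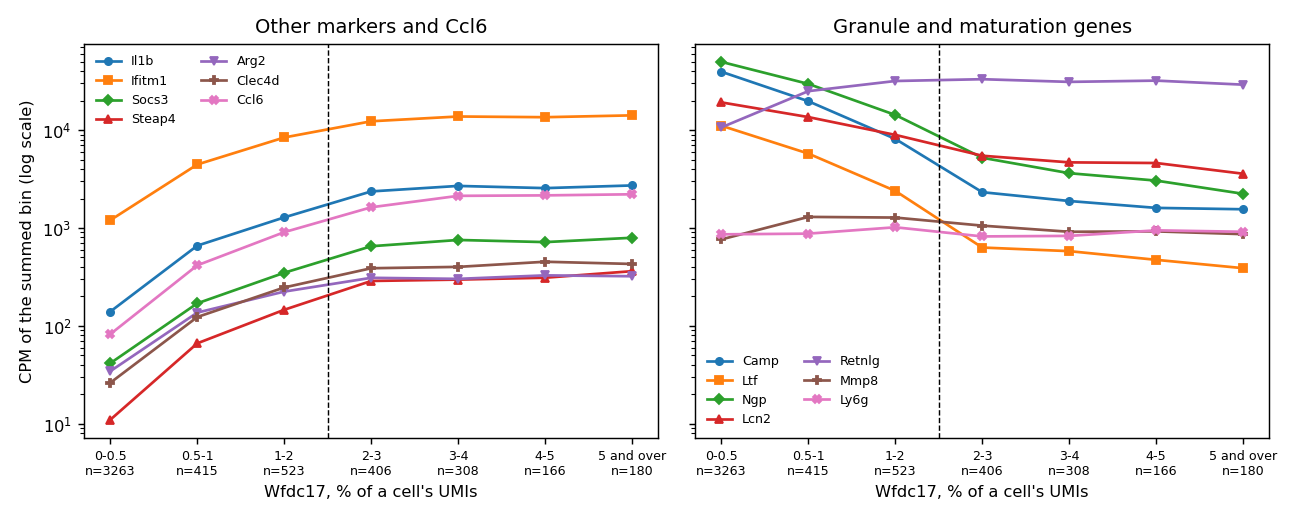
CPM (log scale) of named genes in gated PyMT cells summed by their Wfdc17 share, with the number of cells per bin; the dashed line marks the 2% limit of the very-high cells. Il1b, Ifitm1, Socs3, Steap4, Arg2, Clec4d and Ccl6 climb up to the limit and change less beyond it, while Ngp goes on falling from 5214 to 2234 CPM.

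Very-high cells varied among themselves along Il1b. Among 487 genes with a mean of at least 0.5 UMIs per thinned cell, the ranks of Junb (Spearman 0.47), Btg1 (0.43), B2m, the light chain of MHC class I (0.43), Malat1, a nuclear RNA (0.38), and Msrb1, a methionine sulfoxide reductase (0.37) went most with Il1b over the 1060 cells. Those of Ifitm6 (-0.51), Retnlg (-0.48), Lcn2 (-0.45), S100a8 (-0.41) and Mmp8 (-0.40) went most against it. In the 938 intermediate cells the values were 0.53 for Junb, -0.60 for Ifitm6, -0.30 for Retnlg and -0.53 for Lcn2. Points are cells of 1 library with the same total, so an abundant gene lowers the others.

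Set out as levels, 316 very-high cells with 10 or more Il1b UMIs of 2500 and 269 with 2 or fewer differed in granule genes and hardly in Wfdc17. Wfdc17 was at 37893 CPM in the Il1b-rich and 34657 CPM in the Il1b-poor cells. Retnlg was at 19972 CPM in the Il1b-rich and 40646 CPM in the Il1b-poor cells, Lcn2 at 2841 and 7286, Ifitm6 at 1044 and 5045, and Ngp at 2223 and 7198. Cd177, a neutrophil surface antigen, was at 97.2 CPM in the Il1b-rich and 486 CPM in the Il1b-poor cells. Socs3 was at 1039 and 416 CPM, Junb at 4115 and 1790, and Csf3r at 1305 and 733. Median depth was 2994 UMIs in the Il1b-rich and 4435 in the Il1b-poor cells. Among other cytokine genes, Ccl6 was at 2511 CPM in the Il1b-rich and 1315 CPM in the Il1b-poor cells, and Cxcl2 at 616 and 410.2. The split used Il1b, so these values are a description.

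Stefin genes also varied among very-high cells, as they did in the other PyMT groups. BC100530 and Stfa2, both of the stefin A cluster, correlated across the 1060 cells (Pearson 0.80, Spearman 0.58), and BC100530 and Stfa3 too (0.75 and 0.55). BC100530 was found in 84.9% of thinned very-high cells, and 5% of cells held 28.8% of its UMIs. The top 5% held 30.3% of them in intermediate and 39.1% in Wfdc17-low cells, so this spread was not particular to very-high cells. The Spearman correlation of BC100530 was 0.01 with Wfdc17 and -0.10 with Il1b, so the stefin level varied apart from both. Saa3 was rarer, found in 6.13% of thinned very-high cells, with 97.4% of its UMIs in the top 5% of cells and up to 58 UMIs in a cell of 2500. It was found in 4.48% of intermediate and 2.91% of Wfdc17-low cells, with up to 41 and 13 UMIs. The highest variance over mean, 157, was that of Hbb-bs, a haemoglobin chain, but 6 cells with 20 or more globin UMIs held 78.0% of all globin UMIs of very-high cells. Actb, at 33.0, was next outside the haemoglobin genes, with a median of 9 and a 95th percentile of 80 UMIs per thinned cell, a spread also seen in Wfdc17-low cells with 10 and 101.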

How the data were processed

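Spleen cells sorted for CD11b and Gr1 were profiled as 2 droplet libraries, 1 from 3 pooled PyMT mice and 1 from 5 pooled wild-type mice. The deposited values are raw UMI counts per gene and cell, made by the authors with Cell Ranger 2.1.0 on mm10, per the submitters' processing notes. How cells were called was not stated there. Cells were gated by UMI counts as described above. UMIs were summed per group and divided by the group's total (CPM). A gene was called at 2-fold or more among genes with at least 50 UMIs over both groups. Ratios carry exact conditional 95% intervals, shares exact Clopper-Pearson ones, and all cover counting error only. With 1 library per condition no test was made. Doublets were kept, and an alternative left out the cells most like simulated doublets. Immunoglobulin and T cell receptor genes were left out of the ranking of named genes only. In the main results no gene was taken out of the totals, and the counts of genes used the UMI limit alone. The scripts were tested on simulated data.

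Named genes were, among those with at least 100 UMIs over both groups, the 15 highest and 10 lowest against Wfdc17-low cells by the interval bound nearest 0, and the 8 highest and 8 lowest in the other comparisons. Gate genes, ribosomal, mitochondrial and unnamed genes were left out of that ranking. The markers, up to 4 members of each list with the largest ratios, the 10 most variable genes and the neighbours of Wfdc17 were added. Other members of the lists, and the genes that went with or against Il1b, were chosen after their values were seen. Members and lists were chosen with earlier results of these data known. Promoters and the positions of neighbours came from RefSeq on GRCm38. Tools were Python 3.11.15, numpy 2.4.6, scipy 1.17.1, pandas 2.3.3, scikit-learn 1.9.0 and matplotlib 3.10.9.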

Additional observations from a re-analysis of the deposited data

How the results depend on the processing

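The share of very-high cells, 20.1%, was 24.7% with a limit of 1.5% Wfdc17, 12.4% with 3%, and 56.0% among cells of 2500 to 5000 UMIs, and lay within its interval in the other 7 alternatives. Against Wfdc17-low cells, the 1217 higher and 1533 lower genes became 689 and 393 in cells of 2500 to 5000 UMIs, 804 and 835 with at least 200 UMIs, 2020 and 2463 at 1.5-fold, 567 and 792 at 3-fold, and 196 and 5761 per cell. The higher count was 1891 with at least 10 UMIs, and the lower count 895 in thinned cells. Against Camp-lower cells, the 584 higher and 270 lower genes became 1126 and 665 with at least 10 UMIs, 291 and 107 with at least 200, 1208 and 642 at 1.5-fold, 203 and 95 at 3-fold, and 125 and 1714 per cell, and the lower count was 167 in cells of 2500 to 5000 UMIs. Against wild-type cells, the 1024 higher and 2581 lower genes became 590 and 1523 at 3-fold and 480 and 4791 per cell. The higher count there was 1587 at 1.5-fold, and the lower count 967 in cells of 2500 to 5000 UMIs and 1351 with at least 200 UMIs. The median of all genes against Wfdc17-low cells, -0.077, was -0.22 by the trimmed mean of M-values, -0.36 without the 50 most abundant genes and -1.54 per cell. Per cell, medians turned to -0.18 for the interleukin 1 system, -0.40 for chemoattractant receptors, -0.28 for cytokine receptors, -0.12 for C-type lectin receptors, -0.11 for SOCS and STAT3 genes, -0.039 for interferon-stimulated genes, -0.24 for the IFITM family, -0.15 for hypoxia genes, -0.43 for granulopoiesis transcription factors and -0.28 for Bcl2 family genes. Per cell, log2 ratios turned to -0.030 for H2-Eb1, -0.068 for Zc3h12a, -0.14 for Slc16a3, -0.30 for Fcgr4, -0.37 for H2-T23, -0.38 for Stfa2l1 and -0.42 for Fcgr3. Cell cycle medians turned to 0.49 against Wfdc17-low and 0.15 against wild-type cells in cells of 2500 to 5000 UMIs, and that of the IFITM family to -0.051 with at least 200 UMIs. Each median is over the list genes that passed the UMI limit in that setting, which need not be the same genes. Ccl5 turned to 1.59 with a limit of 1.5% Wfdc17 and 1.00 in thinned cells. The cause was not tested. Leaving out cells with shared barcodes and counting in UMIs per cell were chosen after seeing the data. No paired analysis was possible because each condition is 1 library. Depth limits genes of few UMIs: the very-high cells held 4032946 UMIs in all.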

Other observations

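Of 1138 PyMT cells with at least 2% Wfdc17, 78 failed a gate: 53 the B cell gate, 21 the monocyte gate, 12 the S100a8 and S100a9 gate and 2 the primary granule gate, with some failing more than 1. Doublet-like cells, scored against simulated pairs, made up 1.04% of very-high and 3.06% of Wfdc17-low cells.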
